A study of Rattus norvegicus with 31 samples.

Results

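Thiacloprid (THI) and imazalil (IMZ) were set directly against each other in the liver. The comparison took the 4 libraries from rats on THI and the 4 libraries from rats on IMZ, 8 of the 31 libraries of the series, with no control library in the contrast. All were young adult female Wistar rats (Crl:WI) treated for 28 days by oral gavage with compounds suspended in aqueous carboxymethyl-cellulose. THI was given at 108 mg/kg bw/day and IMZ at 93 mg/kg bw/day, the high level of the dose series of each compound. The doses thus differed in mg/kg bw/day. Single doses were set from earlier studies of each compound and mixtures by relative potency. The rats used beside them were 8 controls on the vehicle alone, 4 rats on THI + IMZ (54 and 46 mg/kg bw/day), 4 rats on THI with clothianidin (THI + CTD, 54 and 134 mg/kg bw/day) and 4 rats on IMZ with clothianidin (IMZ + CTD, 46 and 135 mg/kg bw/day). A further 3 rats on CTD alone entered only the fit of the spread. Each library came from total RNA of a piece of liver, so a difference could come from fewer cells of a type or from less RNA per cell, and these cannot be told apart in bulk tissue.

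THI is a neonicotinoid insecticide and IMZ is an imidazole fungicide that blocks the sterol demethylase of fungi, the enzyme encoded by Cyp51 in mammals. The study cites earlier work in which IMZ activated the nuclear receptors PXR (human and mouse) and CAR (human), and THI activated human PXR. From the expression in these rat livers it predicted activation of CAR and PXR with both compounds. These receptors raise the transcription of cytochromes P450 of the 2B and 3A families, of conjugating enzymes and of export pumps, and compounds that activate CAR in rodents are also known for hepatocyte growth and division. Whether THI and IMZ leave the same transcriptome behind is the question that the direct contrast addresses.

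The count table held 26312 genes, of which 19904 had a sum of at least 2 counts and were tested. THI libraries held 35.3 to 54.8 M counts and IMZ libraries 40.2 to 46.3 M. The hepatocyte markers were the most abundant of the marker lists in both groups, with summed levels of 179107 to 248108 CPM (counts scaled to library size) with THI and 179501 to 219096 CPM with IMZ. None of the 10 hepatocyte markers reached an unadjusted p under 0.05 between the groups.

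Few genes passed the direct test. Only 2 genes passed an adjusted p of 0.05 (edgeR quasi-likelihood test, Benjamini-Hochberg), Cdkn1a and Tp53inp1, and both were lower with THI than with IMZ. These are 0.0100% of the genes tested. No gene (0%) was called higher with THI, where 501 genes had an unadjusted p under 0.05 and the Wald test of DESeq2 called 2. In all, 1026 genes (5.15%) reached an unadjusted p under 0.05, 501 (2.52%) higher with THI and 525 (2.64%) higher with IMZ. In 618 genes (3.10%) the 4 THI and the 4 IMZ libraries did not overlap, with THI above in 300 (1.51%) and IMZ above in 318 (1.60%). Among genes with an average log2 CPM above 0 these shares were 5.82% and 3.97%. Against the 8 controls the same fit called 108 genes with THI (0.543%) and 50 with IMZ (0.251%). Both comparisons share the controls.

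**Figure D1:**
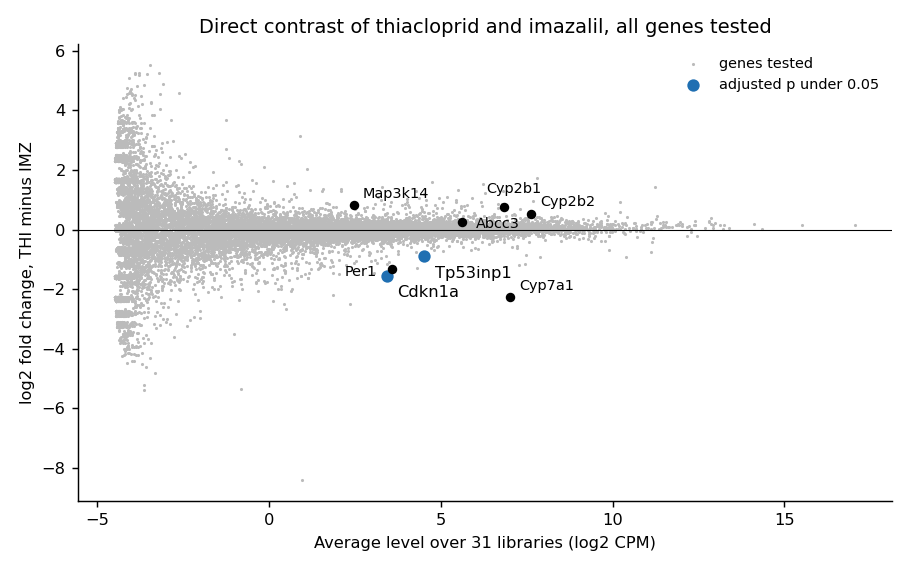
Each grey point is one of 19904 genes, with its average level over 31 libraries in log2 CPM on the x axis and its log2 fold change of THI minus IMZ on the y axis. The blue points are Cdkn1a and Tp53inp1, the 2 genes called, and black points mark further genes named in the text. Genes of high level lie close to 0 while those of few counts scatter widely.

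The small number of DEGs came with narrow intervals. Among 11297 genes with an average log2 CPM above 0, the median SE of the log2 fold change was 0.13, and 94.2% had a 95% interval that lay wholly between -1 and 1. An interval within -0.5 and 0.5 was reached by 68.6% of them. Only 110 of these genes (0.974%) had a log2 fold change beyond 1 in either direction. Of the 108 genes called for THI against control, 75 had an interval of the direct difference within -1 and 1, 32 had a direct unadjusted p under 0.05 and 2 were called. Of the 50 genes called for IMZ against control, 32 had such an interval, 7 had a direct unadjusted p under 0.05 and none was called. The THI or IMZ libraries that chose these genes also enter the direct contrast, so the counts are a description. Over all genes tested 5.15% had a direct unadjusted p under 0.05.

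Over all genes together the split by compound gave the largest distance between group means, relative to that within groups. The squared distance between the group means was 0.303 of the mean squared distance between libraries of a group. Means of small groups lie apart also without any effect, so this ratio is read only against the regroupings. Among the 35 possible regroupings of the 8 libraries no other gave as large a ratio (p = 0.0286 in a one-sided exact permutation test, which can go no lower in this design). Without IMZ replicate 3 the ratio was 0.327 and the exact permutation p was 0.0571.

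Cdkn1a (ENSRNOG00000000521) encodes p21, the inhibitor of cyclin-dependent kinases that p53 induces when it halts the cell cycle. Its level was 3.48, 4.54, 5.18 and 5.07 CPM in the 4 THI libraries and 8.26, 15.97, 14.3 and 15.1 CPM in the 4 IMZ libraries. All THI libraries lay below all IMZ libraries, and also below the lowest of the 8 controls, which ran from 8.70 to 16.8 CPM with a median of 11.8 CPM. The log2 fold change of THI minus IMZ was -1.55 ± 0.27 (SE, n = 4 against 4, adjusted p = 0.0287), a level 2.93-fold higher with IMZ. Against control it was -1.49 ± 0.25 with THI (adjusted p = 0.00103) and 0.06 ± 0.22 with IMZ (adjusted p = 0.980).

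Tp53inp1 (ENSRNOG00000007964) encodes a stress protein that p53 induces and that takes part in autophagy and cell death. Its level was 18.6, 16.8, 13.9 and 15.6 CPM with THI against 28.9, 30.2, 29.99 and 31.5 CPM with IMZ. The IMZ libraries were tightly grouped and stood above every THI library, and the controls ran from 20.1 to 36.5 CPM around a median of 25.6 CPM. THI minus IMZ gave a log2 fold change of -0.89 ± 0.15 (SE, n = 4 against 4, adjusted p = 0.0186). Against control it was -0.68 ± 0.13 with THI (adjusted p = 0.00526) and 0.21 ± 0.12 with IMZ (adjusted p = 0.712).

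Most fits that left out 1 rat lost the calls. Both genes stayed called without IMZ replicate 1 (edgeR adjusted p = 0.0112 for Cdkn1a and 0.0276 for Tp53inp1). Tp53inp1 also stayed called without THI replicate 1 (edgeR adjusted p = 0.0260). Neither gene was called without THI replicate 2, THI replicate 3, THI replicate 4, IMZ replicate 2, IMZ replicate 3 or IMZ replicate 4, and Cdkn1a was not called without THI replicate 1, although the log2 fold change stayed between -1.62 and -1.44 for Cdkn1a and between -0.92 and -0.83 for Tp53inp1 in those fits.

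Cdkn1a, which p53 induces, is shown with the DNA just before its most upstream start. Of the 2 called genes, 1 matched an entry of the RefSeq promoter table by symbol. The window covers the 138 bases that end right before the most upstream start that RefSeq (build GRCr8) annotates for the gene. It lies at chr20:7150682-7150819, plus strand, and is written 5′ to 3′. Capitals mark the match to the p53 half-site.
Cdkn1a: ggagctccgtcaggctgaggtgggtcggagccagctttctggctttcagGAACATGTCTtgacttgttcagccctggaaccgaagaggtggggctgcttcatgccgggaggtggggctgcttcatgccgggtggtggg
The half-site was searched on both strands and matched once, from base 50 of the window. A match of this kind was present in 3.94% of 33469 RefSeq promoter windows of the same length. These windows were the first 138 bases of each promoter entry, which need not end right before the start of the gene. Neither AGAACA, the letters of a glucocorticoid receptor half-site, nor GGGCGG, a GC box, was found in the window, against 9.88% and 14.8% of all windows. These letters describe the sequence of this window only. Sequence farther upstream or at any later start of the gene was not searched, and binding was not measured.

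The p53 targets had no common direction. Of 20 members tested, 2 were called and both were lower with THI, while the median log2 fold change of the list was 0.02, beside 0.01 over the 11297 genes above a log2 CPM of 0. Gadd45a, a growth arrest and DNA repair gene of the same list, had levels of 15.5, 14.1, 13.7 and 13.5 CPM with THI and 7.33, 7.46, 6.75 and 8.56 CPM with IMZ. Its groups did not overlap in the direction opposite to Cdkn1a, with a log2 fold change of 0.92 ± 0.33. edgeR called it when only the 8 libraries entered the fit (adjusted p = 0.0108) and not in the fit of 31 libraries (adjusted p = 0.808). Gtse1, a cell cycle gene that restrains p53, gave -1.08 ± 0.34. Mdm2, Bax and Ccng1, 3 widely used p53 readouts, had log2 fold changes of 0.19 ± 0.16, 0.03 ± 0.16 and 0.06 ± 0.11.

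**Figure D2:**
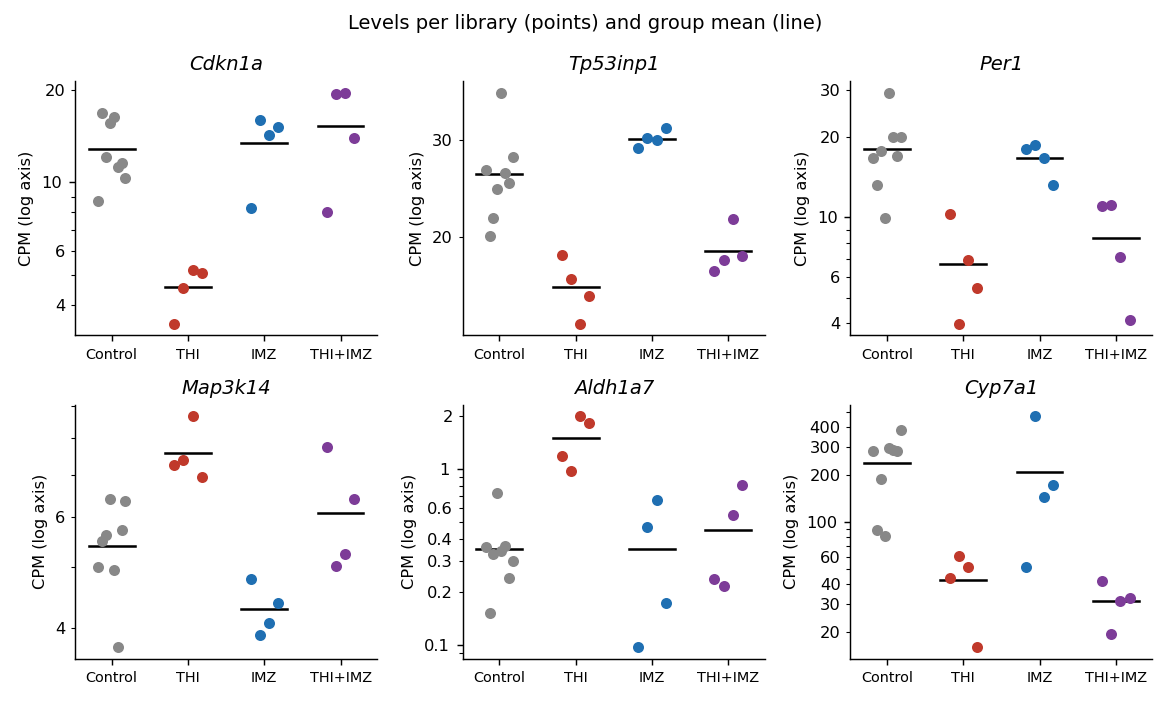
Each point is a library, with its CPM on a log axis, for the 8 control, 4 THI, 4 IMZ and 4 THI + IMZ libraries. The black line is the group mean. The THI points of Cdkn1a, Tp53inp1 and Per1 lie below all IMZ points, those of Map3k14 and Aldh1a7 lie above them, and those of Cyp7a1 overlap with IMZ replicate 1.

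Next to the 2 DEGs, the genes with the smallest p and no overlap between the groups are given as values that did not pass the adjusted threshold. Per1, a clock repressor that glucocorticoids induce, had 10.3, 3.997, 6.95 and 5.43 CPM with THI and 18.1, 18.7, 16.7 and 13.3 CPM with IMZ. Per1 differed by -1.33 ± 0.29 on the log2 scale (edgeR adjusted p = 0.335), and the controls spanned 9.99 to 29.4 CPM. Pls1, an actin-bundling plastin, had 51.3, 48.3, 68.6 and 38.7 CPM with THI and 81.7, 79.7, 81.1 and 85.4 CPM with IMZ. Pls1 had a log2 fold change of -0.67 ± 0.13 (edgeR adjusted p = 0.137), and it was called without THI replicate 3 (-0.84, edgeR adjusted p = 0.00810). The IMZ libraries of Pls1 lay within a narrow band above all THI libraries, and above all controls, the highest of which had 79.0 CPM. Igfbp3, a carrier of insulin-like growth factors, and Slc7a5, an importer of large amino acids, were lower with THI by log2 fold changes of -0.60 ± 0.14 and -0.57 ± 0.14.

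In the other direction, Map3k14, the kinase that starts the non-canonical NF-kappaB pathway, had 7.25, 7.39, 8.66 and 6.95 CPM with THI and 4.78, 3.90, 4.07 and 4.39 CPM with IMZ. The THI libraries stood above all controls, which ran from 3.74 to 6.40 CPM, and the log2 fold change of THI minus IMZ was 0.82 ± 0.17 (edgeR adjusted p = 0.137). Lepr, the leptin receptor, had 19.5, 13.2, 13.4 and 22.95 CPM with THI and 8.22, 10.01, 10.2 and 9.38 CPM with IMZ, a log2 fold change of 0.87 ± 0.22. For Lepr it was the IMZ group that left the control range of 12.2 to 24.5 CPM, with a log2 fold change of -1.07 against control (edgeR adjusted p = 0.00490). Sgpl1, which degrades sphingosine 1-phosphate, gave 0.66 ± 0.16, Pcsk6, a proprotein convertase, gave 0.51 ± 0.13, Gprin3 gave 0.81 ± 0.21 and Rnf152, a lysosomal ubiquitin ligase, gave 0.49 ± 0.13. The Wald test of DESeq2 called Per1, Pls1, Igfbp3 and Map3k14 as well, with adjusted p between 0.00539 and 0.0392.

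CAR and PXR targets were not told apart by the direct test. Of 29 members tested none was called and 2 had an unadjusted p under 0.05, both higher with THI. Over all genes tested the share with such a p was 5.15%, which applies to the lists below as well. The median log2 fold change of THI minus IMZ was 0.11, with 16 members higher with THI and 12 higher with IMZ. The same list had a median of 0.71 for THI and 0.59 for IMZ against the shared controls.

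Cyp2b1 and Cyp2b2 encode the P450 enzymes that serve as the standard readout of CAR. Cyp2b1 had 325, 221, 331 and 180 CPM in the THI libraries and 37.7, 472, 110 and 13.5 CPM in the IMZ libraries, against at most 0.998 CPM in the controls. The IMZ libraries spanned the whole THI range, with IMZ replicate 2 above and replicates 1, 3 and 4 below all THI libraries. Cyp2b1 thus had a log2 fold change of THI minus IMZ of 0.74, with a 95% interval from -0.91 to 2.39, which reached from a lower level with THI to a several-fold higher one. Cyp2b2 had 294, 323, 467 and 273 CPM with THI and 121, 468, 268 and 79.6 CPM with IMZ, and its log2 fold change was 0.54 with an interval from -0.47 to 1.54. Cyp2b1 and Cyp2b2 are near-identical copies whose reads the counting could split, so their separate values are uncertain.

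For other induced genes the intervals were narrower. Abcc3, an export pump for conjugates and bile acids, had 83.4, 55.7, 80.8 and 61.6 CPM with THI and 52.2, 70.7, 67.1 and 47.5 CPM with IMZ. The groups overlapped, and the log2 fold change of THI minus IMZ was 0.25 with an interval from -0.31 to 0.80, while its log2 distance from control was 2.66 with THI and 2.41 with IMZ. Cyp3a23/3a1, the PXR-responsive P450, differed by -0.32 with an interval from -1.07 to 0.42, on levels of at most 3.09 CPM. Aldh1a1, which makes retinoic acid, differed by 0.43 with an interval from -0.15 to 1.02. Mme, the membrane peptidase neprilysin, differed by 0.48 with an interval from -0.36 to 1.31. In the study's qRT-PCR at these doses Cyp3a23/3a1 was higher with IMZ, by a wider gap than in the counts. The qRT-PCR mean of Abcc3 was also higher with IMZ, while those of Aldh1a1 and Mme were higher with THI. The study states that RNA-Seq underestimated the rise of Cyp3a23/3a1 and Mme. Its qRT-PCR means with THI are the same at the mid and the high dose for these genes.

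Aldh1a7, a phenobarbital-inducible aldehyde dehydrogenase and a close relative of Aldh1a1, was the member of the list with the smallest p. Its level was 1.19, 0.976, 1.98 and 1.81 CPM with THI and 0.0965, 0.466, 0.663 and 0.173 CPM with IMZ. The THI libraries stood above all IMZ libraries and above all controls, the highest of which had 0.724 CPM. Aldh1a7 had a log2 fold change of THI minus IMZ of 2.11 ± 0.48 (edgeR adjusted p = 0.389), and the Wald test called Aldh1a7 with an adjusted p of 0.0159. Against control it was 2.04 with THI (edgeR adjusted p = 0.00403) and -0.06 with IMZ (adjusted p = 1.00). Reads shared between Aldh1a7 and Aldh1a1 could be split by the counting, and the level of Aldh1a7 was low.

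**Figure D3:**
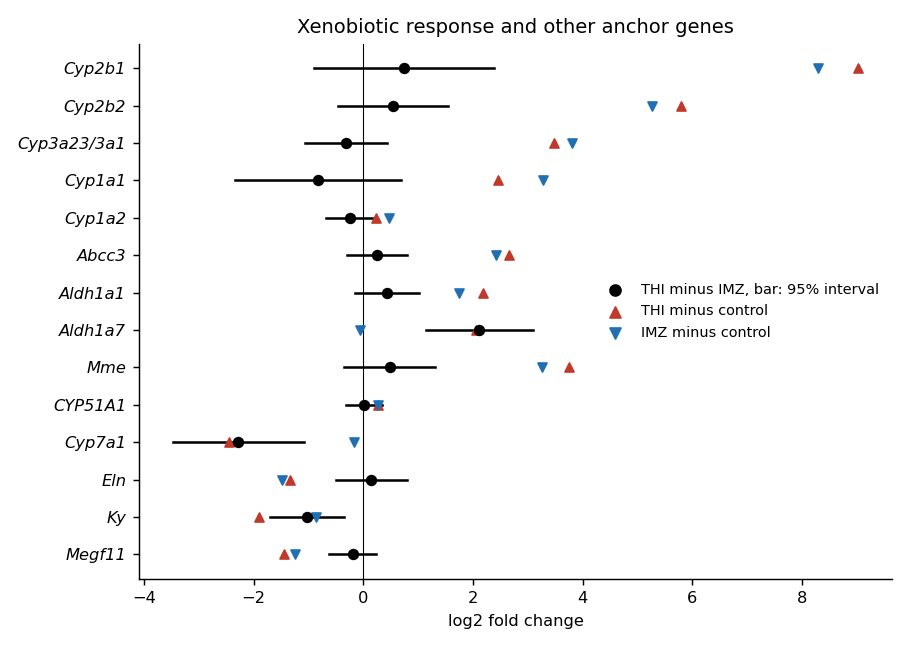
Black points and bars give the log2 fold change of THI minus IMZ with its 95% interval for 14 genes, and the triangles give THI minus control (red, pointing up) and IMZ minus control (blue, pointing down). The red and the blue triangles of Abcc3 lie close together, and those of Aldh1a7 and Cyp7a1 lie far apart. The interval of the direct difference includes 0 for all genes shown except Aldh1a7, Cyp7a1 and Ky.

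Cyp1a1, the standard readout of the aryl hydrocarbon receptor, varied as much within as between the groups. It had 10.2, 39.0, 16.2 and 7.57 CPM with THI and 10.4, 77.6, 34.8 and 7.72 CPM with IMZ. The log2 fold change of THI minus IMZ was -0.83 with an interval from -2.34 to 0.68, and it was 0.06 without IMZ replicate 2. Cyp1a2, of the same family, differed by -0.25 with an interval from -0.68 to 0.18. Of the 8 tested members of the AHR battery none was called. Tiparp, a polymerase that shuts the receptor off, had an unadjusted p under 0.05, with a log2 fold change of 0.51 ± 0.15. The list had a median of -0.46, with 3 members higher with THI and 5 higher with IMZ. This median ran from -0.68 to -0.05 over the 8 fits that left out 1 library. It was -0.03 with filterByExpr, a filter that drops genes of few counts.

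Genes of cell division stood lower with THI than with IMZ throughout the list. All 33 members tested had a lower fitted level with THI, 21 of them had an unadjusted p under 0.05, 9 did not overlap between the groups and none was called. Over all genes tested 5.15% had an unadjusted p under 0.05 and 3.10% did not overlap. The Wald test called 1 of them, Nuf2, a kinetochore protein. The median log2 fold change of THI minus IMZ was -1.28, beside 0.01 over the genes above a log2 CPM of 0, of which 47.5% were higher with IMZ. Members of such a list are transcribed together in dividing cells and are not independent of each other. The list had a median of 0.02 for THI and 1.404 for IMZ against the shared controls.

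The rats overlapped narrowly in the summed level of the cell division list. The sums were 35.1, 43.8, 16.8 and 23.8 CPM in the THI libraries and 59.0, 42.0, 104 and 72.8 CPM in the IMZ libraries, so that IMZ replicate 2 lay just below THI replicate 2. Controls ran from 18.8 to 43.8 CPM and the rats on THI + IMZ from 33.2 to 203 CPM. Top2a, the topoisomerase of dividing cells, had 3.50, 4.71, 0.799 and 1.69 CPM with THI and 6.06, 5.03, 14.7 and 7.97 CPM with IMZ. Its groups did not overlap, and its log2 fold change was -1.63 ± 0.54 (edgeR adjusted p = 0.717). Nuf2 had 0.242, 0.375, 0.0827 and 0.0238 CPM with THI and 0.482, 0.662, 1.82 and 1.12 CPM with IMZ, a log2 fold change of -2.41 ± 0.59. Ckap2, a protein of the mitotic spindle, and Kif4a, a chromosome-bound kinesin, gave -2.19 ± 0.62 without overlap and -1.58 ± 0.50 with IMZ replicate 2 within the THI range. The median of the list was -0.99 without IMZ replicate 3 and -1.68 without THI replicate 2, the ends of the range over the 8 fits that left out 1 library, and the number of members with an unadjusted p under 0.05 ran from 10 to 24 in those fits.

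DNA replication genes showed the same side with smaller differences. All 34 members tested had a lower fitted level with THI, 12 had an unadjusted p under 0.05, 8 did not overlap and none was called, with a median log2 fold change of -0.43. The shares over all genes tested were 5.15% with such a p and 3.10% without overlap. Rrm2, the regulated subunit of ribonucleotide reductase, had 0.404, 0.394, 0 and 0.0476 CPM with THI and 0.965, 0.491, 2.11 and 2.05 CPM with IMZ. A second entry of the count table carries the same gene name in capitals, so reads could be split between them. Fen1, the flap endonuclease, had 2.77, 2.93, 2.98 and 3.10 CPM with THI and 4.57, 4.22, 4.59 and 4.60 CPM with IMZ, a log2 fold change of -0.61 ± 0.20 with tight and separate groups. Mcm4, a subunit of the replicative helicase, gave -0.49 ± 0.18, and Cdt1, which loads the helicase, gave -1.36 ± 0.44. The number of members with an unadjusted p under 0.05 fell to 5 without THI replicate 2 or without IMZ replicate 3.

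Marker lists of the other cells of the liver are given beside these values. Summed B and plasma cell markers were 6.19 to 9.76 CPM with THI and 9.89 to 16.97 CPM with IMZ and did not overlap, with Cd22 giving most of the level. Of the 6 tested markers 5 were lower with THI, and 2 had an unadjusted p under 0.05. T and NK cell markers summed to 16.7 to 22.4 CPM with THI and 19.6 to 24.3 CPM with IMZ, and Kupffer cell and macrophage markers to 502 to 786 CPM and 604 to 704 CPM, with 9 of 10 of the latter lower with THI and none at an unadjusted p under 0.05. Neutrophil markers stayed below 5 CPM in sum, and Elane was at 0 in all 8 libraries. Stellate cell and fibroblast markers summed to 413 to 493 CPM and 388 to 531 CPM, and sinusoidal endothelial markers to 349 to 393 CPM and 355 to 407 CPM. No marker of the 12 lists was called. The part of these cells in the cell division result was not tested.

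**Figure D4:**
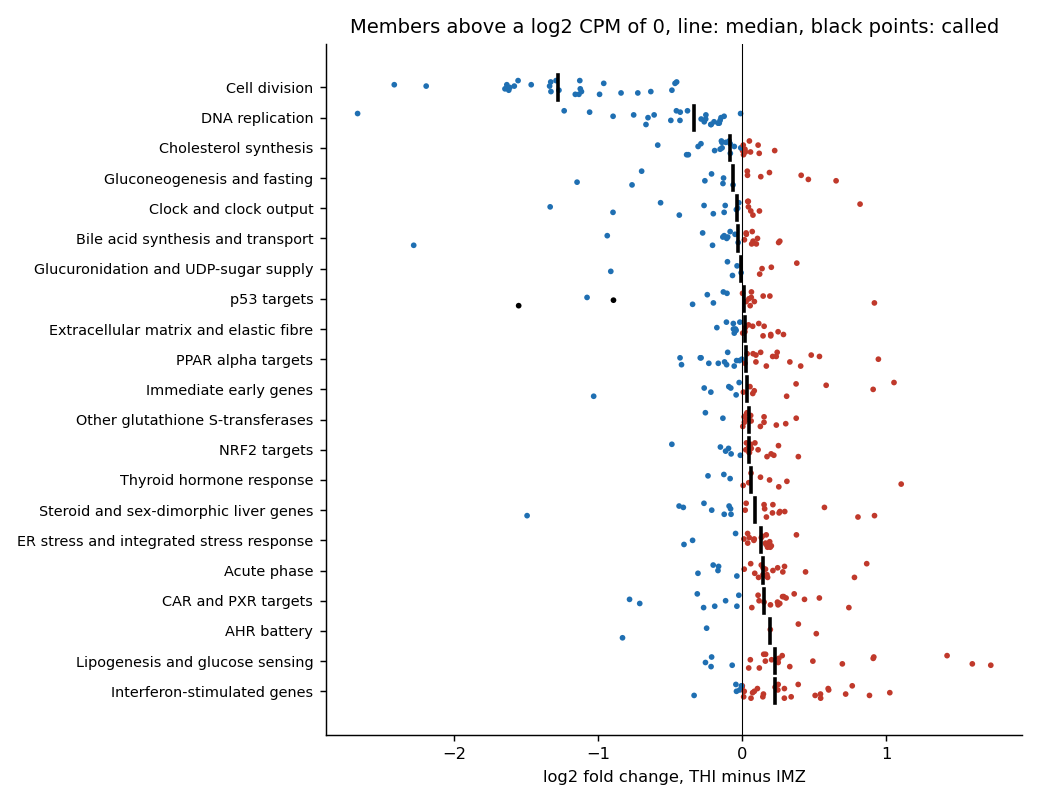
Each point is the log2 fold change of THI minus IMZ of a list member with an average log2 CPM above 0, red where higher with THI, blue where higher with IMZ and black where called. The short vertical line is the median of the members shown. The points of cell division and DNA replication lie on the IMZ side, and the other lists straddle 0, with Cdkn1a and Tp53inp1 as the 2 black points among the p53 targets.

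Among bile acid genes the smallest p belonged to the entry step of the classical pathway. Cyp7a1, its rate-limiting enzyme, had 44.1, 60.7, 51.3 and 15.9 CPM with THI and 51.7, 469, 143 and 171 CPM with IMZ. IMZ replicate 1 lay among the THI libraries and the other IMZ libraries above them, and the controls spanned 81.9 to 385 CPM. The log2 fold change of THI minus IMZ was -2.28 ± 0.58 (edgeR adjusted p = 0.470), with -2.45 against control for THI (adjusted p = 0.0275) and -0.17 for IMZ (adjusted p = 0.966). Cyp8b1, the sterol 12-alpha-hydroxylase downstream of it, had a log2 fold change of -0.94 ± 0.38. The list had a median of -0.03 over 23 members, of which 19 had an interval within -1 and 1, 3 an unadjusted p under 0.05 and none was called. Nr0b2, the repressor of Cyp7a1 known as SHP, differed by -0.12 ± 0.35.

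Cholesterol synthesis genes, which include the mammalian counterpart of the fungal target of IMZ, had no call and mostly narrow intervals. Cyp51, listed as CYP51A1, had 702, 592, 617 and 461 CPM with THI and 600, 614, 546 and 597 CPM with IMZ. The ranges overlapped and the log2 fold change was 0.01 with an interval from -0.33 to 0.34. None of the 26 members was called or had an unadjusted p under 0.05, and 24 had an interval within -1 and 1.

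Lipogenic genes leaned to THI with wide scatter among rats. Of 23 members 18 were higher with THI, 4 of them at an unadjusted p under 0.05 and none called or free of overlap, and the median log2 fold change was 0.20. Scd, the stearoyl-CoA desaturase, had 523, 946, 358 and 341 CPM with THI and 101, 398, 95.4 and 61.2 CPM with IMZ, a log2 fold change of 1.73 ± 0.72. IMZ replicate 2 was the one library of its group within the THI range. Fasn, the fatty acid synthase, gave 0.91 ± 0.41 and Acaca, which supplies it with malonyl-CoA, gave 0.69 ± 0.31. The median of the list ran from 0.06 to 0.37 over the 8 fits that left out 1 library.

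PPAR alpha targets, which burn fatty acids, had a median of 0.03, with 18 of 31 members higher with THI and none called. Angptl4, an inhibitor of lipoprotein lipase, had 299, 199, 358 and 305 CPM with THI and 176, 107, 149 and 171 CPM with IMZ, and its groups did not overlap (log2 fold change 0.95 ± 0.36). Fabp1, the liver fatty acid binding protein, was separated in the other direction, with a log2 fold change of -0.42 ± 0.14. Among genes of gluconeogenesis and fasting, Txnip, which limits glucose uptake, gave 0.46 ± 0.12 without overlap and Tat, the tyrosine aminotransferase that glucocorticoids induce, gave -0.70 ± 0.25 with overlap. None of these genes was called.

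Among clock genes Per1 was the one without overlap between the groups. The core activators Arntl (listed as ARNTL) and Clock differed by 0.08 ± 0.07 and -0.12 ± 0.11. Bhlhe40, a clock repressor that many stimuli induce, gave 0.82 ± 0.21, and Usp2 and Dbp, outputs of the clock, gave -0.90 ± 0.38 and -0.44 ± 0.20, all with overlap between the groups. The list had a median of -0.02 over 21 members, with 4 at an unadjusted p under 0.05 and none called.

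Stress and immune lists had small medians. Of 33 interferon-stimulated genes 27 were higher with THI, with a median log2 fold change of 0.15, 3 at an unadjusted p under 0.05 and none called. Irf1, a transcription factor of this response, had 51.4, 65.5, 47.2 and 53.3 CPM with THI and 43.7, 27.7, 32.6 and 39.3 CPM with IMZ, without overlap and with a log2 fold change of 0.60 ± 0.20. Mx2 and Isg15, an antiviral GTPase and a ubiquitin-like modifier, gave 1.02 ± 0.46 and 0.88 ± 0.40, with THI replicate 1 at 60.1 and 9.97 CPM as the highest library in each. Without THI replicate 1 the median of the interferon list turned to -0.04, with 14 members higher with THI and 19 higher with IMZ. Without any other single library 23 to 29 members were higher with THI. Acute phase genes gave a median of 0.15 with 19 of 24 higher with THI and none at an unadjusted p under 0.05. The mean log2 CPM of the acute phase list did not overlap between the groups, with 8.35 to 8.39 with THI and 8.11 to 8.24 with IMZ, and the controls ran from 8.18 to 8.61. Xbp1 (listed as XBP1), a master regulator of the unfolded protein response, gave 0.38 ± 0.11 without overlap, in a list with a median of 0.11 and no member called. Immediate early genes, which answer to stimuli within a short time, had no common side over 22 members. Junb at 1.05 ± 0.43, Ier2 at 0.91 ± 0.30 and Ier5 at 0.58 ± 0.18 were higher with THI without overlap, while Fos gave -1.03 ± 0.62 with overlap.

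The other 6 lists, among them NRF2 targets, further transferases and steroid genes, held no member called and medians between 0.02 and 0.16. Cyp17a1, which makes androgens and whose inhibition by azoles is well known, had 2.59, 1.595, 2.29 and 1.69 CPM with THI and 6.73, 5.91, 6.72 and 3.48 CPM with IMZ. Its groups did not overlap and the log2 fold change was -1.49 ± 0.41 (edgeR adjusted p = 0.529). Cyp26a1, which breaks down retinoic acid, had 17.6, 37.6, 26.2 and 11.1 CPM with THI and 9.88, 4.88, 20.4 and 13.9 CPM with IMZ, a log2 fold change of 0.92 ± 0.38 with overlap. Gstk1, a mitochondrial and peroxisomal glutathione transferase, gave 0.30 ± 0.11 without overlap. NRF2 targets, thyroid hormone response genes and extracellular matrix genes had no member at an unadjusted p under 0.05. Eln, which encodes elastin, and Megf11 were lower than control with both compounds (edgeR adjusted p of at most 0.0167), and their direct differences were 0.15 ± 0.32 and -0.20 ± 0.21. Ky, a muscle-type peptidase, had 2.51, 4.75, 3.45 and 7.14 CPM with THI and 7.33, 11.04, 10.85 and 7.26 CPM with IMZ. The groups of Ky touched without overlap, and the log2 fold change was -1.02 ± 0.33 (edgeR adjusted p = 0.717).

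A related comparison was made in other rats. THI + CTD and IMZ + CTD differ in their first compound and hold nearly the same dose of CTD. None of their libraries enters the contrast of THI with IMZ. THI was given there at 54 instead of 108 mg/kg bw/day and IMZ at 46 instead of 93 mg/kg bw/day, both with CTD. The comparison is therefore not a repeat of THI against IMZ alone. Between these mixtures 35 genes were called (0.176%), 24 (0.121%) higher with THI + CTD and 11 (0.0553%) higher with IMZ + CTD, and 2065 (10.4%) had an unadjusted p under 0.05. These calls depended on single libraries. Only 3 genes were called without THI + CTD replicate 2, 8 without THI + CTD replicate 3 or IMZ + CTD replicate 4, 9 without IMZ + CTD replicate 2 or replicate 3 and 18 without IMZ + CTD replicate 1. Cdkn1a gave -0.32 ± 0.27 (edgeR adjusted p = 0.707) and Tp53inp1 gave 0.05 ± 0.15 (adjusted p = 1.00). Cdkn1a stood at 5.77 to 8.41 CPM with THI + CTD and at 5.07 to 11.6 CPM with IMZ + CTD, and these ranges overlapped.

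Of the 100 genes with the smallest p for THI against IMZ and a log2 CPM above 0, 54 had the same sign in these other rats, 13 with an unadjusted p under 0.05 on the same side and 3 on the opposite side. Over all 11297 genes above a log2 CPM of 0 the same sign was found in 50.4%. Of the 35 genes called there, 20 had the same sign for THI against IMZ. The cell division list had a median of -0.25 and the DNA replication list one of 0.12 in these rats, with no member called in either.

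Genes without overlap between THI and IMZ had either sign here, and a few on each side are given. Ky was called in the other rats, with -1.60 ± 0.34 (edgeR adjusted p = 0.0351). Per the study, Ky was the exception among its selected genes, as its direction did not match between RNA-Seq and qRT-PCR. Aldh1a7 gave 1.86 ± 0.47 (edgeR adjusted p = 0.0947), with 1.59 to 1.94 CPM in THI + CTD and 0.308 to 0.624 CPM in IMZ + CTD. Gadd45a gave 1.04 ± 0.33 and Sgpl1 gave 0.54 ± 0.17. Txnip at -0.44 ± 0.12, Lepr at -0.61 ± 0.22 and Per1 at 0.57 ± 0.30 had the opposite sign to that of THI minus IMZ. They were not called (edgeR adjusted p from 0.137 to 0.510).

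For genes called in the other rats the values of both contrasts are given side by side. The CAR and PXR list had a median of 0.62 there and 2 of 29 members called, beside 0.176% of all genes tested. Lists without a called member had medians there from -0.25 for cell division to 0.46 for lipogenesis, with 0.45 for cholesterol synthesis and 0.40 for glucuronidation. A median over all genes was not taken for this contrast. Por, the reductase that feeds electrons to all microsomal P450 enzymes, gave 1.24 ± 0.25 (edgeR adjusted p = 0.0268) beside 0.12 ± 0.24 for THI minus IMZ. Abcb1a, a multidrug export pump, gave 0.98 ± 0.20 (edgeR adjusted p = 0.0268) beside 0.30 ± 0.19. Cyp2b2 of the same list was not called and gave 2.31 ± 0.51 (edgeR adjusted p = 0.0523), with 272 to 525 CPM in THI + CTD and 63.4 to 93.8 CPM in IMZ + CTD, beside 0.54 ± 0.49. For Cyp2b2 the difference between the contrasts was -1.77 ± 0.70 (edgeR adjusted p = 0.573). The PPAR alpha list had a median of 0.37 and 3 of 31 members called, Acot2, Acot3 and Pex11a. Of these, Acot3, a peroxisomal thioesterase, gave 1.02 ± 0.17 beside -0.23 ± 0.17. The NRF2 list had a median of 0.20 and 1 of 21 members called. The clock list had a median of 0.57 and 2 of 21 members called. These were Dbp and Hlf, at 1.00 ± 0.20 and 1.32 ± 0.27 beside -0.44 ± 0.20 and 0.06 ± 0.25. Grin2c, a glutamate receptor subunit, was on the same side in both, with 2.29 ± 0.44 (edgeR adjusted p = 0.0244) beside 1.36 ± 0.42.

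**Figure D5:**
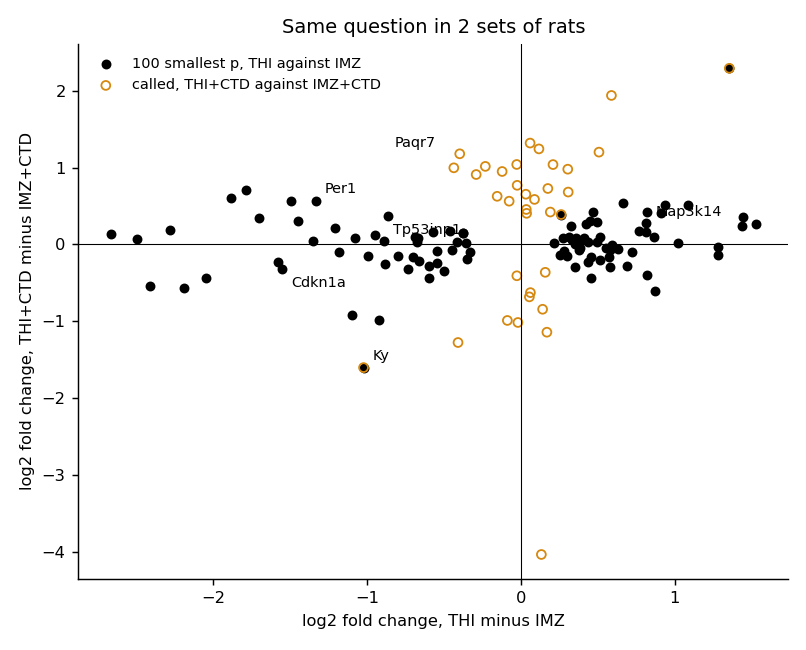
Black points are the 100 genes with the smallest p for THI against IMZ and a log2 CPM above 0, and open circles the 35 genes called for THI + CTD against IMZ + CTD. The x axis is the log2 fold change of THI minus IMZ and the y axis that of THI + CTD minus IMZ + CTD. Cdkn1a and Tp53inp1 lie far to the left but close to 0 on the y axis, and Ky lies low on both.

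The difference between the 2 contrasts was tested in the same fit. It passed the adjusted threshold for 1 gene, Paqr7, a membrane progestin receptor, and 1487 genes (7.47%) had an unadjusted p under 0.05. Paqr7 had a log2 fold change of -0.40 ± 0.18 for THI minus IMZ and of 1.18 ± 0.18 for THI + CTD minus IMZ + CTD, a difference of -1.58 ± 0.26 (edgeR adjusted p = 0.0170). For Tp53inp1 the difference of the log2 fold changes was -0.94 ± 0.21 (edgeR adjusted p = 0.140) and for Per1 -1.90 ± 0.42 (adjusted p = 0.140). Cdkn1a gave -1.23 ± 0.38 (edgeR adjusted p = 0.444), so neither of the 2 genes called for THI against IMZ was shown to differ between the contrasts. Of the cell division list 1 of 33 members had an unadjusted p under 0.05 for this difference, and of the DNA replication list 9 of 34, with no member called in either.

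The THI + IMZ mixture held each compound at a reduced dose and was compared with both at the level of the group means. Its mean level lay between those of THI and IMZ for 73 of the 100 genes with the smallest p, against 30.9% of all genes above a log2 CPM of 0. The 100 genes were chosen for a wide gap between THI and IMZ, into which a mean falls more easily, so the count is a description. Tp53inp1 stood at 17.4 to 21.5 CPM in the mixture, overlapping with the THI libraries and below all IMZ libraries. Cdkn1a stood at 7.99 to 19.6 CPM in the mixture, above all THI libraries and across the IMZ range. Cyp7a1 stood at 19.3 to 42.2 CPM, below all IMZ libraries.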

How the data were processed

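Liver RNA of 31 female rats was sequenced by the authors in paired-end mode from stranded total RNA libraries, 1 library per rat. Per the labels and the study's methods, reads were trimmed with Skewer, checked with FastQC 0.11.5 and mapped with STAR 2.5.2b to Rnor_5.0. The annotation release and the strand setting of the counting are not given in the sources used here, so reads of near-identical copies or overlapping genes could be split. The deposited raw count per gene was used for all tests. The second deposited table holds a signal that the authors made by dividing counts by a DESeq2 size factor (version 1.15.1), and it served for checks only.

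Groups came from the sample labels, with different rats as replicates. A gene was kept where its 31 counts summed to 2 or more, and libraries were scaled by TMM. The edgeR quasi-likelihood test (edgeR 4.0.16, limma 3.58.1, R 4.3.3) was fitted with 7 group means, with a Benjamini-Hochberg adjustment across the 19904 genes and a threshold of 0.05. Unadjusted p-values come from the same fit. SEs were derived from the log2 fold change and the F statistic, and intervals cover 95%. The common biological coefficient of variation was 19.4%. The script was tested on simulated data. Of the genes tested, 17144 had a symbol, and 393 symbols stood on more than one row.

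Named genes were those called, then by smallest p those that filled each direction to 6 genes among genes without overlap, with a log2 CPM above 0 and a symbol, then anchor genes (2 of them are not reported here) and up to 4 members of each list by smallest p. Mdm2, Bax, Ccng1, Arntl, Clock, Nr0b2, Cd22, Elane, Paqr7 and the genes called only in the rats on mixtures with CTD fall outside this rule and were chosen after their values were seen, as was the contrast between the 2 pairs of groups. The members and the lists were chosen with earlier results of these data known. Alternatives were DESeq2 1.42.0 and its size factors, other filters, the newer quasi-likelihood method, a fit of 8 libraries, a replicate block and leaving out each library. Totals of 31.8 to 101 M counts per library set the counting error.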

Additional observations from a re-analysis of the deposited data

Results flagged for a closer look

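Single libraries stood apart from the other 3 of their group by a Dixon test in 13 of 280 groups of 4 examined (4.64%), and chance flags about 1 in 20. No explanation was tested. With THI, Igfbp3 had 16.8 CPM in replicate 3 against 24.9 to 26.5 CPM in the others. Cdt1 had 0.429 CPM in replicate 4 against 0.242 to 0.263 CPM, and Aldh1a1 had 287 CPM in replicate 2 against 436 to 458 CPM.

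With IMZ, replicate 2 stood apart in 5 genes. It had 72.8 CPM of Mid1ip1 against 47.5 to 50.5 CPM, 15.3 CPM of Ier5 against 13.02 to 13.25 CPM and 4.22 CPM of Fen1 against 4.57 to 4.60 CPM. It also had 398 CPM of Scd against 61.2 to 101 CPM and 11.2 CPM of Fos against 2.27 to 2.97 CPM. Slc7a5 had 24.2 CPM in IMZ replicate 3 against 17.4 to 18.2 CPM.

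Over whole lists, the mean log2 CPM of acute phase genes was 8.39 in THI replicate 3 against 8.35 to 8.36, and that of hepatocyte markers was 12.50 in THI replicate 1 against 12.67 to 12.69. B and plasma cell markers stood at -3.11 in THI replicate 4 against -2.20 to -2.12. Pancreatic acinar markers stood at -0.71 in IMZ replicate 1 against -1.43 to -1.33.

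Paqr7 differed between the 2 pairs of groups by a test of the difference itself, -1.58 on the log2 scale (edgeR adjusted p = 0.0170). It had 34.2, 21.2, 24.9 and 26.6 CPM with THI and 29.7 to 48.1 CPM with IMZ, against 37.0 to 52.7 CPM with THI + CTD and 16.2 to 26.3 CPM with IMZ + CTD.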

How the results depend on the processing

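The count of 2 DEGs was the same with DESeq2 size factors, the newer quasi-likelihood method, no filter and filterByExpr, and Cdkn1a and Tp53inp1 were called in each. The DESeq2 Wald test called 12, 2 of them higher with THI, and included a gene of very few counts. The fit of the 8 libraries called 3. Leaving out 1 library gave 0 to 2 calls, with adjusted p from 0.0112 to 0.233 for Cdkn1a and from 0.0260 to 0.112 for Tp53inp1. For THI + CTD against IMZ + CTD, 35 genes became 191 by the Wald test, 86 in the fit of 8 libraries and 3 to 31 when a library was left out, with 3 without THI + CTD replicate 2. The cause was not tested. The separation ratio ran from 0.327 to 0.358 with a library left out. Precision of the THI against IMZ difference, taken as the share of intervals within -1 and 1, was 95.03% in the fit of 8 libraries, 97.2% above a log2 CPM of 2 and 92.4% to 92.9% with a library left out. Members called over all lists were 5 by the Wald test, against 2. Of the 100 genes with the smallest p, 47 to 59 had the same sign in the other rats when a library was left out.

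For 106 single genes, 1564 of 1587 values under alternatives kept direction and side of the threshold, 13 lost the call, 9 gained one, 1 moved and 0 reversed. With the replicate number as a block 3 genes were called for THI against IMZ and 50 in the other pair. Same-numbered THI and IMZ rats deviated with correlations from -0.22 to 0.05, so the numbers did not pair the rats. Genes of few counts had wide intervals. The intervals are not adjusted for the number of genes, so a call needed more than an interval that excludes 0. Pls1, at -0.67 ± 0.13, was not called by edgeR (adjusted p = 0.137). With 4 rats per group differences of this size could thus be missed.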
